A study of Mus musculus with 3 samples.

Results

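Meg3, Rian, Mirg and Rtl1 are 4 transcripts of one imprinted domain on mouse chromosome 12. Their levels were followed in CAD cells given control siRNAs or siRNAs against polypyrimidine tract binding proteins. CAD cells are a mouse catecholaminergic neuroblastoma line. The ON-TARGETplus siRNAs, delivered with Lipofectamine 2000, were of a control kind, targeted Ptbp1, or targeted Ptbp1 and Ptbp2 at once, and cells were taken 72 h later. Poly(A)+ RNA was read as 36-base paired ends, with 1 library in each of the 3 groups. PTBP1 binds pyrimidine-rich RNA and controls splicing in many cell types, and PTBP2 is the closely related protein that takes over in neurons.

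The 4 transcripts are 4 of the 26835 genes kept from the deposited table, with 1 table row each. A search of the table's aliases for the 4 symbols found Rtl1 alone. The Meg3 row carries the older symbol Gtl2, and the Rian and Mirg rows carry the identifiers uc007pba.1 and uc007pbd.1, so these 2 rows were found by their position in GENCODE's mouse genes on mm9, the build of the table. The group was chosen by its read values in these libraries, namely the differences of Meg3 and Rian between the siRNA groups. Its levels and differences are therefore a description, without a test, and with 1 library per group no p-value is given. Intervals are 95% limits that cover counting error only, and reads copied by PCR are not independent molecules.

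In an imprinted domain the 2 parental copies of a gene are not used alike. On this stretch of chromosome 12 the noncoding RNAs Meg3, Rian and Mirg are made from the maternal copy, and the protein-coding genes Dlk1, Rtl1 and Dio3 mainly from the paternal one. Meg3 is a nuclear long noncoding RNA. Rian carries C/D box small nucleolar RNAs in its introns, and Mirg carries a large cluster of microRNAs. Rtl1 encodes a retrotransposon-derived protein needed in the placenta, and microRNAs made from the maternal copy, antisense to it, match its mRNA fully and cut it.

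All coordinates are on mm9, chromosome 12, and count from 1. The Meg3 row runs on the plus strand from 110779215 to 110809936, with a counted length of 8259 bases where GENCODE annotates 18089 exonic bases. Rian lies on the same strand from 110858538 to 110899922, with 3489 counted bases, and its row begins 16.4 kb inside the annotated gene, which starts at 110842155. Mirg follows on the plus strand from 110973192 to 110987666, and its 3175 counted bases equal its annotated exons. Rtl1 lies on the minus strand between Meg3 and Rian, from 110828380 to 110833614, with 3898 counted bases of a span of 5235. From the start of Meg3 to the end of Mirg is 208 kb. No other row with a position lay on the plus strand between the Meg3 and Mirg rows, and the 2 further rows listed there had no length and no reads.

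The promoter window of Meg3 is shown because this RNA had the largest difference of the 4. It is the RefSeq window from 250 bases before the start to 50 after it, located by exact match on the plus strand of mm9 at chr12:110778956-110779255. Capitals mark the letters TGACGTCA, the palindromic form of a cAMP response element, and TATATAA, letters like those of a core promoter box.
Meg3 promoter: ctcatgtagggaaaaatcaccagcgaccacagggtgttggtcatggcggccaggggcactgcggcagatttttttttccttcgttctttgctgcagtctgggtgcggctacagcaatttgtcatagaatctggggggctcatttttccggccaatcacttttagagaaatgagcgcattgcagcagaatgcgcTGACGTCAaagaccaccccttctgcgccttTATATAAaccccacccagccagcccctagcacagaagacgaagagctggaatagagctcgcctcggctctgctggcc
TGACGTCA began 57 bases before the start and TATATAA 27 bases before it. Both strands were searched, and the reverse complement of TATATAA overlapped the marked copy by all but 1 of its letters. Of 32851 RefSeq mouse promoter windows of this length, 1.79% held TGACGTCA and 3.24% held TATATAA. Neither was found in the windows of Rian, Mirg or Dlk1, nor in the window of a second annotated Meg3 start. CCAAT, which 37.4% of windows held, was present once in the Meg3 window and once in that of Mirg. These are matches of letters and not measured sites, and binding was not measured here.

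The microRNAs antisense to Rtl1 are shown because they tie the maternal RNAs to the Rtl1 mRNA. RefSeq sequences of 110 mature microRNAs were located exactly between the start of Meg3 and the end of Mirg, from 60 microRNA genes. Of the 110, 69 lay outside the 4 annotated genes. A further 3 lay in Meg3 exons, 6 in Rian introns, 4 in Mirg exons and 15 in Mirg introns. Within the Rtl1 exon 2 lay on its own strand and 11 lay antisense. The 5 below are 1 arm each of 5 of the 6 microRNA genes antisense to Rtl1, with the seed, bases 2 to 8, in capitals.
mmu-miR-431-5p: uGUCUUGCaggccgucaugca
mmu-miR-433-3p: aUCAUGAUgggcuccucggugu
mmu-miR-127-3p: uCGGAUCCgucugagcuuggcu
mmu-miR-434-3p: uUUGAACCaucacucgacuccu
mmu-miR-136-5p: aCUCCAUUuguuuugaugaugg
The 11 mature sequences held 11 different seeds, so none of them shared a seed. The annotation also places 13 small nucleolar RNA genes inside Rian. Mature microRNAs and small nucleolar RNAs carry no poly(A) tail and were not measured here.

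The targeted genes were checked next. Ptbp1 went from 7191 reads in control to 1486 with Ptbp1 siRNA and 1516 with the siRNA pair, 5.35-fold lower (5.06 to 5.66) and 4.41-fold lower (4.18 to 4.67) than control. Ptbp2 held 784, 3044 and 633 reads, so that it was 3.51-fold higher after Ptbp1 siRNA and 1.15-fold lower than control (1.04 to 1.28) after both. The 3 libraries held 14072079 to 16685108 reads in gene clusters, and a level of 1 CPM, the scaled read number per library size, stood for 14.3 to 16.9 reads. Mitochondrial genes took 3.73% to 4.68% of reads. Differences are on the log2(CPM + 1) scale, where those of weakly expressed genes appear smaller than they are, and a fold is the ratio of the CPM values themselves. A gene was called by size when it differed by 2-fold on the log2(CPM + 1) scale, reached 1 CPM in the higher library, and had a read-ratio interval that left out 1.

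Meg3 was higher after either knockdown, and highest where both proteins had been targeted. It held 18 reads in control (95% exact Poisson limits 10.7 to 28.4), 98 after Ptbp1 siRNA (79.6 to 119) and 141 after both siRNAs (119 to 166). The levels were 1.17 CPM (0.696 to 1.86), 5.78 CPM (4.69 to 7.05) and 9.89 CPM (8.33 to 11.7). These limits did not overlap between any 2 of the libraries.

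Meg3 was thus 4.92-fold higher after Ptbp1 siRNA than in control (2.96 to 8.65), a difference of 1.64 on the log2(CPM + 1) scale. After both siRNAs it was 8.42-fold higher (5.14 to 14.6), a difference of 2.32. Of the 13281 genes tested for Ptbp1 siRNA only Ptbp2 differed more in the upward direction, and of the 13301 tested for both siRNAs none did. After both siRNAs Meg3 was 1.71-fold above its level after Ptbp1 siRNA alone (1.31 to 2.24), an interval without 1 but short of the 2-fold limit, and 128 of 13335 genes lay above it. The GENCODE exons of Meg3 share 6.79% of their bases with Gm17639 on the opposite strand. The library preparation does not mark strand, so reads from these shared bases cannot be told apart.

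Rian, the host of small nucleolar RNAs, was also higher after both treatments, by a smaller fold than Meg3 and from a higher level. Its row held 60 reads in control (45.8 to 77.2), 181 after Ptbp1 siRNA (156 to 209) and 177 after both siRNAs (152 to 205), or 3.92, 10.7 and 12.4 CPM. The control library lay below both knockdown libraries, and the 2 knockdown libraries overlapped. The rise was 2.73-fold after Ptbp1 siRNA (2.03 to 3.72; log2 difference 1.25) and 3.17-fold after both siRNAs (2.35 to 4.32; 1.45). In these comparisons 6 and 21 tested genes lay above it. After both siRNAs Rian stood 1.16-fold above its level after Ptbp1 siRNA alone (0.940 to 1.44), an interval that holds 1.

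Mirg, the microRNA host at the far end, showed no difference that its depth could resolve. It held 24 reads in control (15.4 to 35.7), 33 after Ptbp1 siRNA (22.7 to 46.3) and 29 after both siRNAs (19.4 to 41.6), with levels of 1.57, 1.95 and 2.03 CPM. All 3 libraries overlapped. The ratio to control was 1.24 after Ptbp1 siRNA (0.713 to 2.20) and 1.30 after both siRNAs (0.730 to 2.33). The upper limits leave room for a 2-fold difference in either comparison, so it was not detectable at this depth rather than absent.

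Rtl1, the paternally expressed coding gene, was at the edge of detection in every library. Its reads numbered 15 in control (8.40 to 24.7), 16 after Ptbp1 siRNA (9.15 to 26.0) and 15 after both siRNAs (8.40 to 24.7), which is 0.979, 0.944 and 1.05 CPM. The 3 libraries overlapped over nearly their whole limits. Its ratio to control was 0.964 after Ptbp1 siRNA (0.446 to 2.09) and 1.07 after both siRNAs (0.490 to 2.36). The former pair stayed under 1 CPM, so Rtl1 was not tested there. Reads of the RNA antisense to Rtl1 would fall on the same bases and cannot be told apart from those of its mRNA.

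**Figure D1:**
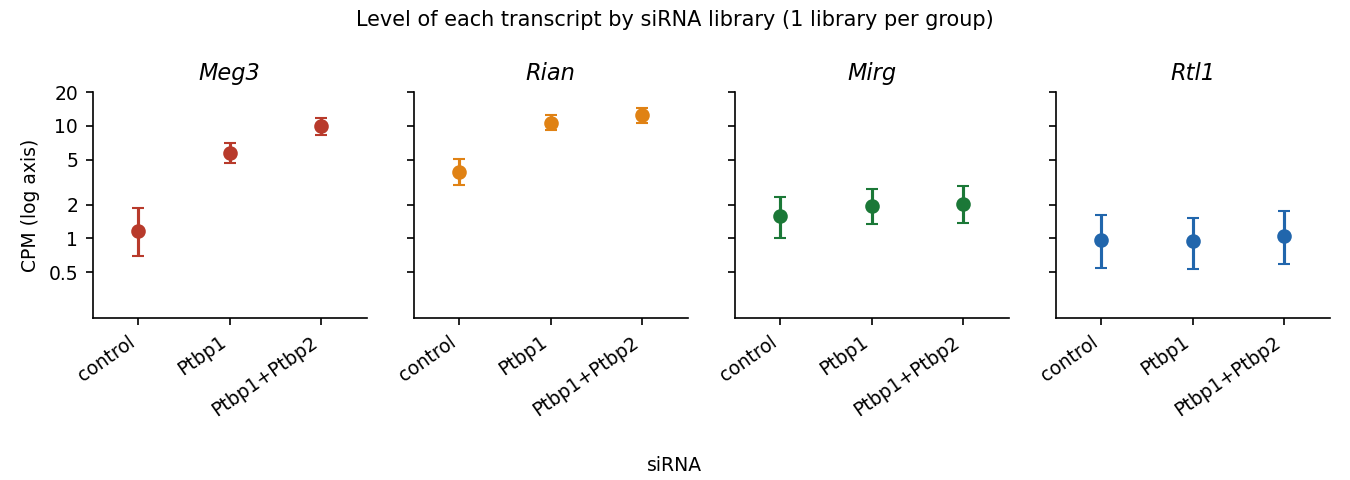
Levels of Meg3, Rian, Mirg and Rtl1 in CPM on a log axis, 1 panel per transcript and 1 point per siRNA library, with bars for the 95% exact Poisson limits of the read number. Meg3 stands at 1.17, 5.78 and 9.89 CPM and Rian at 3.92, 10.7 and 12.4 CPM, while the bars of Mirg and of Rtl1 overlap in all 3 libraries.

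Counted against the whole table, 2 of the 3 members tested were called higher after Ptbp1 siRNA, Meg3 and Rian, beside 0.286% of all genes tested (38 of 13281). After both siRNAs 2 of 4 were called, the same Meg3 and Rian, beside 1.11% (147 of 13301). None of the 4 was called between both siRNAs and Ptbp1 siRNA, where 0.105% of genes were called higher. The members were chosen with these contrasts known, so nothing is read from these shares. None of the 4 was called lower, while 0.444%, 2.67% and 0.345% of all genes were in the 3 comparisons. Shares this low also stand behind each count of 0 called in the gene lists, so nothing is read from those counts. Over all genes tested the medians were 0.00 and -0.01 for Ptbp1 siRNA and for both siRNAs. Over the members tested they were 1.25 and 0.84, from unlike sets, since Rtl1 was tested only in the latter. Both comparisons use the same control library, so a low value there enters both.

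The share of genes called higher depended on scaling. Among called genes 39.2% were higher after Ptbp1 siRNA and 29.3% after both siRNAs. Scaling to the sum of reads gave 51.0% and 40.3%. That scaling moved the median of all genes by 0.06 at most, and Meg3 and Rian were called under it too.

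**Figure D2:**
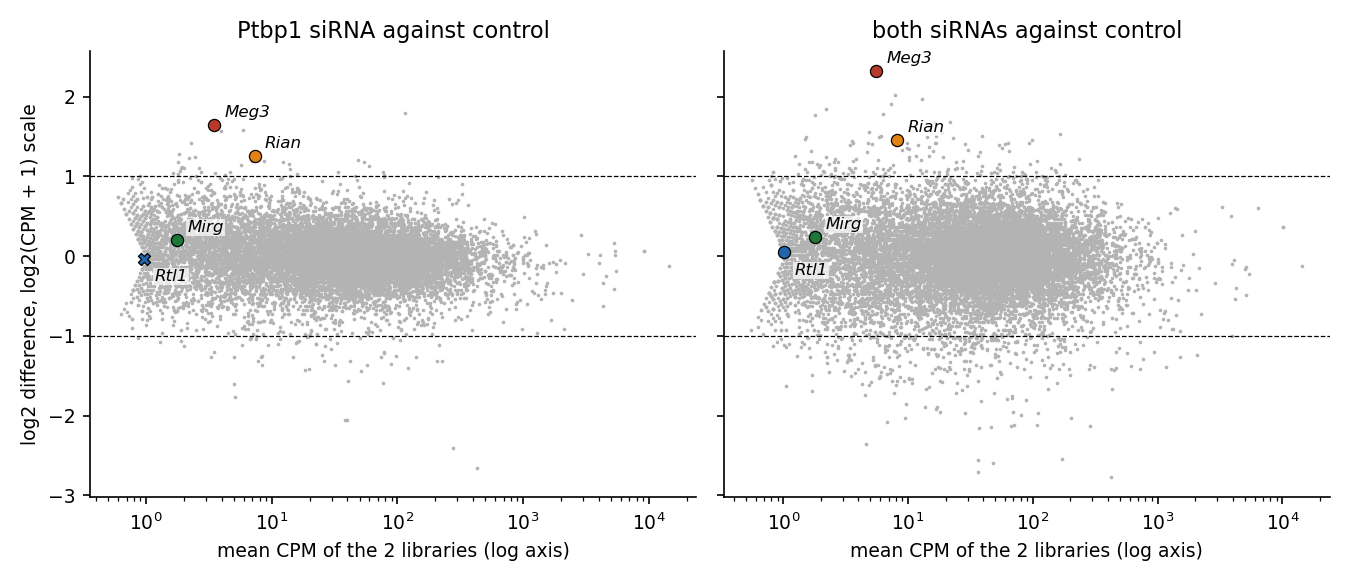
Log2 difference from control, on the log2(CPM + 1) scale, against the mean CPM of the 2 libraries (log axis), for Ptbp1 siRNA (left) and both siRNAs (right). Each grey point is a tested gene, dashed lines mark the 2-fold limit, and the cross marks Rtl1 where it was under 1 CPM. Meg3 lies at 1.64 and 2.32 and Rian at 1.25 and 1.45, while Mirg and Rtl1 lie between -0.03 and 0.24.

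Other long intergenic noncoding RNAs (lincRNAs) give the nearest comparison by kind, since Meg3, Rian and Mirg carry that annotation. Of 220 lincRNA genes tested after Ptbp1 siRNA, Meg3, Rian and Mirg included, 2 were called higher, 0.909%. These were Meg3 and Rian, chosen for their differences, and no other lincRNA was called higher there. After both siRNAs 5 of 220 were called higher, 2.27%, namely Meg3, Rian, 2700038G22Rik (35, 79 and 102 reads in control, Ptbp1 siRNA and both), 2610027K06Rik (18, 34 and 58) and B230217O12Rik (10, 26 and 35). Gm16046 (37, 19 and 10) was called lower there, beside 2.67% of all genes tested. The middle 90% of the tested lincRNAs, with Meg3, Rian and Mirg in the set, lay between -0.52 and 0.47 after Ptbp1 siRNA and between -0.64 and 0.79 after both. Meg3 and Rian lay above these ranges and Mirg within them. Among genes with a mean of 10 to 150 reads over the 3 libraries, the band of Meg3, Rian, Mirg and Rtl1, 0.714% and 2.08% were called higher.

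Set against one another, the 3 noncoding RNAs differed unequally in these libraries, though Meg3 and Rian had been chosen for their differences. Their summed reads went from 102 in control to 312 after Ptbp1 siRNA and 347 after both siRNAs, ratios of 2.77 (2.20 to 3.49) and 3.66 (2.92 to 4.61) to control, and 1.32 (1.13 to 1.55) between the 2 knockdown libraries. Meg3 made up 17.6% of these reads in control (exact binomial limits 10.8 to 26.4), 31.4% after Ptbp1 siRNA (26.3 to 36.9) and 40.6% after both siRNAs (35.4 to 46.0). The share of Mirg went the other way, from 23.5% (15.7 to 33.0) to 10.6% (7.39 to 14.5) and 8.36% (5.67 to 11.8). Rian held 58.8%, 58.0% and 51.0%, with overlapping limits. The sum was thus carried by Meg3 and Rian.

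The folds themselves were compared as ratios, for 6 pairs of transcripts in each of the 3 comparisons. After both siRNAs the fold of Meg3 was 2.65 times that of Rian (1.46 to 4.99), 6.41 times that of Mirg (2.93 to 14.4) and 7.71 times that of Rtl1 (2.98 to 20.3). The fold of Rian was 2.43 times that of Mirg (1.25 to 4.71). After Ptbp1 siRNA alone the fold of Meg3 was 1.80 times that of Rian (0.983 to 3.43), an interval that still held 1. It was 3.92 times that of Mirg (1.80 to 8.75), and the fold of Rian was 2.19 times that of Mirg (1.14 to 4.16). Mirg and Rtl1 did not separate, at 1.29 (0.487 to 3.40) and 1.21 (0.448 to 3.26). Between the 2 knockdown libraries only 1 of the 6 pairs, Meg3 against Rian at 1.47 (1.04 to 2.08), had an interval without 1. Because Meg3 and Rian were chosen for their differences, these ratios describe the libraries and are not tests. Their intervals cover counting error only.

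Per length, the order of the 4 changed between the libraries. By the authors' RPKM, which divides reads by row length and by a library total, control cells held Rian at 0.712 (0.543 to 0.916), Mirg at 0.313 (0.200 to 0.465), Rtl1 at 0.159 (0.0891 to 0.263) and Meg3 at 0.0902 (0.0534 to 0.143). Rian lay clear of Mirg, while Mirg and Rtl1, and Rtl1 and Meg3, overlapped. After Ptbp1 siRNA Meg3 was second at 0.463 RPKM (0.376 to 0.564), overlapping Mirg at 0.405 (0.279 to 0.569), below Rian at 2.02 and above Rtl1 at 0.160. After both siRNAs Meg3 at 0.791 RPKM (0.666 to 0.933) lay clear of Mirg at 0.423 (0.284 to 0.608), with Rian at 2.35 and Rtl1 at 0.178 (0.0998 to 0.294), which overlapped Mirg. Rian was thus 7.89, 4.37 and 2.97 times Meg3 in the 3 libraries. In all 3 libraries every RPKM value of the 4 stayed low, and fewer cells that express an RNA and less RNA per cell cannot be told apart in these bulk samples.

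The other genes of the imprinted domain had too few reads to be compared with Meg3 and Rian. Dlk1, a paternally expressed membrane protein of the Notch ligand family that ends 80.3 kb before Meg3, held 2 reads in control, 3 after Ptbp1 siRNA and 0 after both siRNAs. The 0 allows up to 3 reads, or 0.210 CPM. Dio3, the deiodinase that inactivates thyroid hormone, and its antisense RNA Dio3os held 0 reads in all 3 libraries. Of Dlk1, Dio3 and Rtl1, the paternally expressed genes named above, Rtl1 alone reached 1 CPM, and only after both siRNAs.

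Of 20 listed genes of the domain and its flanks 15 were tested, and Dlk1, Dio3 and Dio3os were not among the 15. Of these 15, 0 were called in either comparison with control. The medians were -0.01 after Ptbp1 siRNA and -0.02 after both siRNAs (0.05 and 0.04 with scaling to the sum of reads). Begain, a postsynaptic scaffold-associated protein gene, held 186, 189 and 117 reads, with log2 differences of -0.11 and -0.51. Wdr25 beside it held 89, 86 and 53 reads (-0.16 and -0.53). Wars, which encodes tryptophanyl-tRNA synthetase, had the highest neighbour value after both siRNAs, with 638, 948 and 942 reads (0.42 and 0.65) and a 1.59-fold ratio (1.43 to 1.76). Ppp2r5c, a regulatory subunit gene of protein phosphatase 2A past Mirg, held 1466, 1664 and 1578 reads (0.04 and 0.21). Hsp90aa1, a chaperone gene, stood at 0.29 and 0.45, Dync1h1, the dynein heavy chain, at -0.23 and -0.45, and Rcor1, a corepressor gene, at -0.29 and -0.52. The remaining tested neighbours, Evl, Yy1, Slc25a47, Wdr20a, Cinp, Tecpr2, Traf3 and Stk30 (now Mok), lay between -0.31 and 0.34 in both. Degs2 (2, 3 and 1 reads) and Slc25a29 (8, 7 and 3 reads) stayed under 1 CPM. None of the 15 reached the values of Meg3 or Rian.

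**Figure D3:**
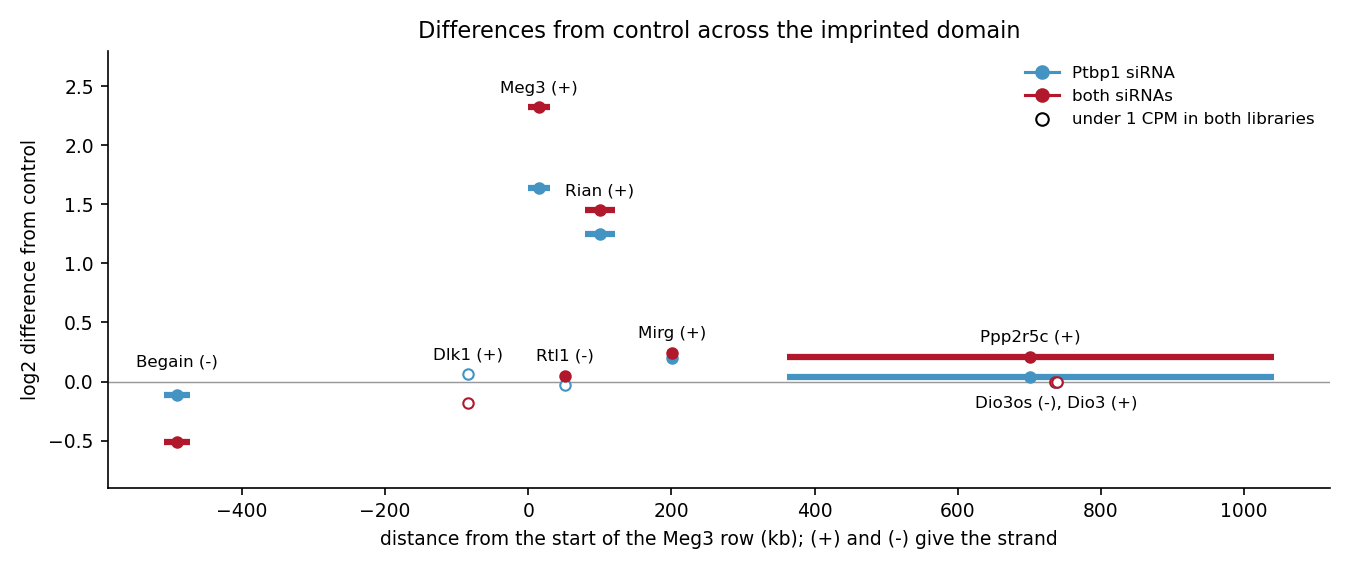
Log2 difference from control of the genes around Meg3, by distance from the start of the Meg3 row in kb, with bars as long as each row, blue for Ptbp1 siRNA and red for both siRNAs. Open points were under 1 CPM in both libraries of the pair. Meg3 and Rian stand at 1.25 to 2.32, while Begain, Rtl1, Mirg and Ppp2r5c lie between -0.51 and 0.24.

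Imprinted genes elsewhere in the genome were read beside Meg3 and Rian, and over all genes tested 49.6% lay above 0 after Ptbp1 siRNA and 49.4% after both siRNAs. Of 15 tested genes listed as maternally expressed, 12 lay below 0 after Ptbp1 siRNA and 11 after both siRNAs, with 0 called. Their medians were -0.16 and -0.26 (-0.11 and -0.20 with scaling to the sum of reads). H19, a maternally expressed noncoding RNA like Meg3, held 703, 705 and 415 reads (-0.14 and -0.64). Osbpl5, a lipid transfer protein gene, was the highest of the list at 186, 306 and 309 reads (0.54 and 0.79). Igf2r, the receptor that clears Igf2, held 40, 39 and 21 reads (-0.13 and -0.55), and the tetraspanin gene Cd81 stood at -0.26 and -0.53.

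For 16 tested genes listed as paternally expressed, the medians were -0.12 and -0.25 (-0.06 and -0.21 with that scaling). After Ptbp1 siRNA 13 lay below 0 with 0 called, and after both siRNAs 11 did, with 2 called lower beside 2.67% of all genes tested. The 2 were Peg3, a zinc finger gene with 3811, 2626 and 1592 reads (-0.68 and -1.15), and Magel2, with 3636, 3060 and 1532 reads (-0.39 and -1.14). Mest held 42401, 24941 and 23951 reads (-0.91 and -0.72), and 23.0% of its exon bases are shared with Copg2. Sgce stood at -0.27 and -0.67. Parental origin was taken as listed and not measured. The placing of Zim1 here (-0.04 and -0.27) and of Ddc in the maternal list (-0.69 and -0.25) is uncertain. Exchanging Zim1 and Ddc would leave the counts below 0 unchanged, but the medians could shift. No tested gene of these lists was called higher, where 0.286% and 1.11% of all genes tested were. Some listed genes had no row or were not tested, and Meg3 and Rian had been chosen for their differences.

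**Figure D4:**
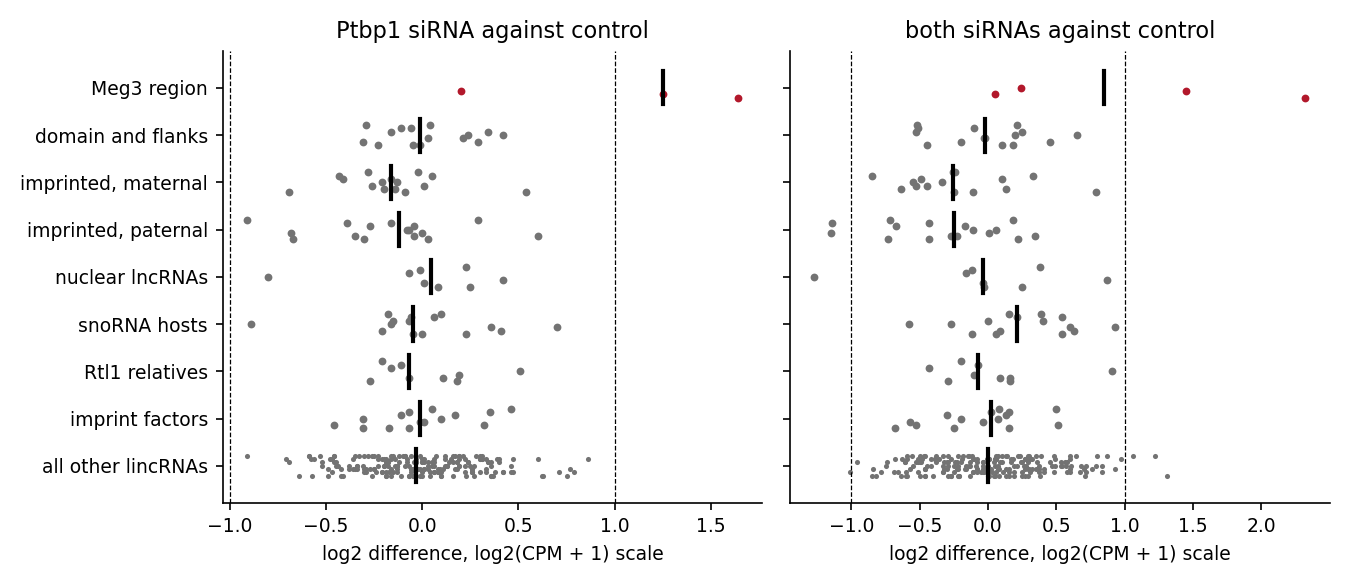
Log2 difference from control, on the log2(CPM + 1) scale, of each tested gene in 9 groups, for Ptbp1 siRNA (left) and both siRNAs (right), with a black bar at each group's median and dashed lines at the 2-fold limit. The Meg3 region medians are 1.25 (3 members tested) and 0.84 (4 members, with Rtl1). Those of the tested domain and flank genes, which do not include Dlk1, Dio3 or Dio3os, are -0.01 and -0.02. Those of the genes listed as paternally expressed are -0.12 and -0.25.

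Other nuclear long noncoding RNAs were read in the same way. Of 8 tested, 0 were called after Ptbp1 siRNA and 1, Malat1, was called lower after both siRNAs, beside 2.67% of all genes tested. Their medians were 0.05 and -0.03 (0.10 and 0.02 with scaling to the sum of reads). Malat1, a nuclear speckle RNA, held 32671, 20757 and 12602 reads (-0.80 and -1.27), and Pvt1 held 199, 300 and 350 (0.42 and 0.87). Tug1, whose reads numbered 1286, 1692 and 1425, stood at 0.25 in both comparisons. Enox, an older name of Jpx, an RNA of the X-inactivation centre, stood at 0.23 and 0.38. None of the 8 had a value as high as Rian.

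Other hosts of small nucleolar RNAs showed smaller values than Rian. Of 15 tested, 0 were called in either comparison, with medians of -0.05 after Ptbp1 siRNA (0.01 with scaling to the sum of reads) and 0.21 after both siRNAs. After both siRNAs 12 of the 15 lay above 0. Gm11974, the older name of Snhg15, held 145, 210 and 270 reads (0.36 and 0.93), and Nop56, a core protein gene of C/D box particles, held 2310, 3397 and 3324 (0.41 and 0.63). Snhg11 held 33, 70 and 54 reads (0.70 and 0.60). 1500012F01Rik, the older name of Zfas1, was the lowest, with 3827, 2282 and 2370 reads (-0.89 and -0.58).

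Factors known to act on imprinted domains, such as DNA methyltransferases, TET enzymes and zinc finger proteins, gave 0 calls among 15 tested, with medians of -0.01 and 0.02 (0.06 and 0.08 with scaling to the sum of reads). After both siRNAs Tet1 stood at -0.68 (227, 199 and 126 reads), Tet2 at -0.57 (1441, 1605 and 901), Dnmt3b at -0.53 (193, 151 and 120) and Mbd3 at 0.51 (1096, 1517 and 1457). Whether these values bear on Meg3 or Rian was not tested.

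The sequence of the RNAs themselves was scanned for the pyrimidine hexamers TTCTCT and CTCTCT, letters of the kind that polypyrimidine tract binding proteins favour. On the sense strand of its GENCODE exons, overlaps allowed, Meg3 held 12 copies of TTCTCT and 17 of CTCTCT, or 1.60 per kb for both. Rian held 3 and 2 (0.610 per kb), Mirg 2 and 1 (0.945) and Rtl1 2 and 2 (0.629). Over 1087 lincRNA genes with at least 1000 exonic bases the median was 1.09 per kb, and 70.2% of them lay below Meg3, 27.1% below Rian and 43.3% below Mirg. These are matches in annotated exons, including parts outside the counted rows, and introns were not scanned.

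The genes whose 2 differences from control lay nearest to those of Meg3 were ranked by Euclidean distance over these 3 libraries, among 12986 genes. A2bp1, now named Rbfox1, a neuronal splicing factor, was the nearest at a distance of 0.309, with 38, 160 and 187 reads in control, Ptbp1 siRNA and both siRNAs. The next were Lrrc55 (38, 103 and 172 reads; distance 0.744), an auxiliary subunit of potassium channels, Shbg (0.792), H2-DMa (0.852) and the histamine receptor gene Hrh3 (0.909). Only A2bp1 lay close to Meg3, since the others lay 0.744 or more away on the log2 scale.

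Rian had nearer neighbours. Prrt3 lay at 0.0668 (75, 211 and 210 reads), Mettl22 at 0.0717 (444, 1157 and 1105 reads) and Napb, a vesicle fusion factor gene, at 0.175 (562, 1380 and 1327 reads). Cecr6 and Slc45a1 followed at 0.191 and 0.195. The comparison libraries share 1 control, and with 3 points per gene the ranking describes these libraries only.

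Markers were used to check the labelled cell type and to look for other cells. All 12 markers of a catecholaminergic neuron line were tested, with summed levels of 5126, 4503 and 5240 CPM in control, Ptbp1 siRNA and both siRNAs. Dbh, the enzyme that makes noradrenaline, held 2153, 4743 and 4671 reads, and Phox2a, a transcription factor of these neurons, held 1522, 1982 and 2940. Both were called higher after both siRNAs, with differences of 1.22 and 1.05, beside 1.11% of all genes tested. Exons of Phox2a share 26.1% of their bases with Inppl1 on the opposite strand, and reads there cannot be told apart. After Ptbp1 siRNA 7 of the 12 markers lay below 0 (median -0.11), and after both siRNAs 6 did (median 0.02). Among these 6, Th stood at -0.23 and Ddc at -0.25. The neuronal RNA-binding protein gene Elavl4 stood at 0.61 and Stmn2 at -0.48 in that comparison. The part of these genes in the values of Meg3 and Rian was not tested.

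The 4 lists of markers of other cells given here had lower summed levels in both knockdown libraries than in control. The 8 fibroblast markers summed to 14.6, 12.1 and 7.86 CPM, with Col1a2 at 0 in every library and Pdgfrb at 76, 90 and 35 reads. Col1a1 (122, 88 and 48 reads) was called lower after both siRNAs, beside 2.67% of all genes tested. The 7 astrocyte markers summed to 2.61, 1.71 and 1.40 CPM, with Gja1 and Slc1a3 at 0 throughout and most reads on Slc1a2 (35, 23 and 19). The 7 blood and endothelial markers summed to 22.8, 17.3 and 12.2 CPM, with Hbb-b1 at 0, and most of these reads were Pecam1 (335, 259 and 161). Cdh5, an endothelial cadherin gene, was higher after Ptbp1 siRNA alone, with 6, 26 and 4 reads, a ratio of 3.92 to control (1.58 to 11.6) and a log2 difference of 0.86 that was not called. Skeletal muscle markers summed to 284, 217 and 187 CPM, of which Myh3 held the most (4272, 3574 and 2568 reads), while Acta1 held 52, 43 and 85.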

How the data were processed

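The deposited table gives, for 27389 trimmed gene clusters on mm9 (build per the submitters' processing notes), a whole-number net read value per library, a length and the authors' RPKM. The aligner, counter and gene set are not given in the sources used here. In 38 clusters a read value was below 0 (lowest -65), so the values are net numbers. These clusters and 127 without length were left out, and the rest were treated as counts, the form the plan gave for raw reads, so the intervals are approximate. The RPKM values as deposited imply library totals of 24167120, 25649604 and 21572838 reads, of which the clusters kept held 65.2%, 65.1% and 65.2%.

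Clusters were named from aliases and GENCODE positions (span overlap of at least 0.5 of the union): 16086 by alias and position, 932 by an older alias and position, 4096 by position, 62 by alias, while 6213 kept the first alias. Of several rows for a symbol, the row with the highest mean was kept. Library scaling used trimmed means of M values, with trims of 30% on M and 5% on A and resulting factors of 0.972, 1.02 and 1.01, computed with numpy 2.4.6, pandas 2.3.3 and scipy 1.17.1. Ratios carry exact conditional binomial (Clopper-Pearson) 95% intervals, and ratios of folds conditional odds-ratio intervals. The calling step was tested on data simulated with counting error alone, which hold no variation between cultures. RefSeq sequences come from tables built on GRCm38.p6 and were located in mm9 by exact match.

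The members and gene lists were chosen with earlier results of these data known. Genes named were the 4 members, the targeted genes, the measured chromosome 12 genes, up to 4 members per other list with the largest difference after both siRNAs among those with at least 50 reads in the pair, any called member, and the 5 genes nearest to Meg3 and to Rian. The called lincRNAs, Ezh2, Cdh5 and the markers at 0 were named after their values were seen. A further list of markers of other cells, whose summed level was above control in both knockdown libraries, is not reported here, and its part in the results was not tested. Alternatives were other scalings, pseudocounts of 0.1 and 5, no filter or 5 CPM, limits of 1.5-fold and 3-fold, and summed rows.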

Additional observations from a re-analysis of the deposited data

How the results depend on the processing

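Meg3, Rian and Mirg kept their direction under the other scalings and pseudocounts, as did Rtl1 where it was tested. Rtl1 after Ptbp1 siRNA was under 1 CPM, and no other scaling gave it a value. Over the alternatives, Meg3 ranged from 0.80 to 2.21 after Ptbp1 siRNA and from 1.27 to 2.97 after both siRNAs, and Rian from 0.81 to 1.42 and from 0.97 to 1.64. The pseudocount set the call. With a pseudocount of 5 CPM Meg3 (0.80) and Rian (0.81) were not called after Ptbp1 siRNA, where 0 members were, and only Meg3 (1 member) was called after both siRNAs. At a 3-fold limit only Meg3 (1 member) was called in either comparison. At a 1.5-fold limit Meg3 (1 member) was also called between both siRNAs and Ptbp1 siRNA.

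Counts of genes called higher and lower moved as follows. For Ptbp1 siRNA against control they were 173 and 134 with a pseudocount of 0.1, 4 and 26 with 5, 407 and 448 at 1.5-fold, 2 and 7 at 3-fold, and 23 were higher with a filter of 5 CPM. For both siRNAs against control 350 were higher with a pseudocount of 0.1, and the counts were 45 and 174 with 5, 992 and 1310 at 1.5-fold, and 9 and 47 at 3-fold. For both siRNAs against Ptbp1 siRNA they were 86 and 170, 1 and 9, 246 and 479, and 1 and 1 at these settings, with 6 higher under the authors' library totals and 6 with a filter of 5 CPM. The other 62 values, which are counts and the ratio of the Meg3 fold to the Rian fold, stayed within 1.5 times. Of the differences of the 4 transcripts and the summed folds, 101 values stayed on their side of the limit.

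The depth limits Mirg and Rtl1 in every library, at 15 to 33 reads. It also limits Meg3 in control, where 18 reads carry its folds against control. No replicate could be left out, and variation between cultures was not measured. No paired analysis was possible because each group has 1 library.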

Other observations

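Gene lists outside imprinting were read beside Meg3 and Rian. For 12 p53 targets tested, the medians were 0.00 after Ptbp1 siRNA and -0.43 after both siRNAs (0.06 and -0.37 with scaling to the sum of reads). After both siRNAs 4 of the 12 lay above 0, with Zmat3 the highest at 0.27. After Ptbp1 siRNA 0 were called, and after both siRNAs 3 were called lower, beside 2.67% of all genes tested. The 3 were Btg2 (489, 310 and 162 reads in control, Ptbp1 siRNA and both siRNAs; -1.41 after both), Trp53inp1 (374, 261 and 138; -1.25) and Gdf15 (2285, 2790 and 970; -1.12), while Gadd45a stood at -0.78. Of the Gadd45a exon bases 19.1% are shared with E230016M11Rik. Meg3 is known as an RNA that can raise p53 activity in other cells, and no relation between the 2 was tested.

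Of 11 genes of polycomb repressive complex 2 and its partners, 0 were called, with medians of 0.01 and 0.11. Phf1 (477, 392 and 267 reads) stood at -0.70 after both siRNAs and Ezh1 (871, 781 and 561) at -0.52. Suz12 stood at -0.28, Rbbp4 at 0.27 and the main catalytic subunit gene Ezh2 at 0.11. Of the Rbbp4 exon bases 18.0% are shared with Gm17525 and Sync. Of 12 microRNA processing genes 0 were called, with medians of 0.07 and 0.13. Dicer1, whose enzyme cuts microRNA precursors, held 1088, 1483 and 1471 reads (0.53 after both), Dgcr8 stood at 0.45 with 11.3% of its exon bases shared with Trmt2a, Eif2c2 at 0.37 and Ddx17 at -0.38. Of 9 genes derived from Ty3/Gypsy elements like Rtl1, 0 were called, with medians of -0.07 in both comparisons. Ldoc1l was the highest of them, at 490, 778 and 872 reads (0.51 and 0.91), while Peg10 stood at -0.43, Cxx1b at -0.29 and Cxx1a at -0.20 after both siRNAs.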
